A study of Homo sapiens with 13 samples.

Results

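Promoters that carried no histone mark in MDA-MB-231 cells are described here. A promoter was a 3 kb window centred on the transcription start site (TSS) of the Ensembl canonical transcript of a protein-coding gene, and it was selected on the deposited histone peak positions, when it shared not even 1 bp with a region of H3K4me1, H3K4me3 or H3K27ac. Of 19894 windows, 6039 met this rule, which is 30.4% (95% Wilson interval 29.7% to 31.0%). They comprised 5964 windows on chromosomes 1 to 22 and X, all 62 windows of chromosome Y and all 13 mitochondrial windows. On chromosomes 1 to 22 and X alone the share was 30.1% (29.5% to 30.7%). The lists held 23 H3K4me1, 87 H3K4me3 and 26 H3K27ac regions on Y, none of them in its windows. Whether the cells carry chromosome Y was not tested. Because the marks chose the windows, the absence of marks is a description and was not tested, while peaks of RNA polymerase II (Pol II), CTCF and p300/CBP and the DNA sequence were not used by the rule.

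The cells, a human line established from a triple-negative breast cancer, were kept in standard culture without a treatment. Chromatin immunoprecipitation and sequencing gave 2 libraries for each histone mark, for Pol II and for CTCF, and 1 library of pooled immunoprecipitations for p300/CBP. The deposited lists hold 1 set of regions per antibody with the replicates merged, with positions and no heights, so depth is unknown and the spread between replicates cannot be seen. All intervals below cover counting error over windows only, and windows are not replicates of the experiment.

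H3K4me3 marks the start sites of most expressed genes, H3K27ac marks active promoters and enhancers, and H3K4me1 is broad at enhancers and at the flanks of promoters. A promoter without any of them is usually that of a gene used in another tissue or at another stage, and such genes often sit side by side in families that arose by duplication. CTCF binds DNA directly through its zinc fingers and organises chromatin loops, p300 and CBP are acetyltransferases that deposit H3K27ac, and Pol II transcribes the genes.

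The DNA just upstream of these start sites differed widely in its content of CpG dinucleotides. The examples below are the 120 bases before the TSS of the first unmarked gene, by list or chromosome order, of several gene lists used here, and of VIM, the intermediate filament gene of mesenchymal cells, as a marked promoter for contrast. Sequences are from GRCh37 (hg19), 5′ to 3′ on the strand of the gene, and capitals mark CpG dinucleotides and a TATAAA element that lies 45 to 15 bases before the TSS.
OR4F5 (chr1:65299-65418, plus strand): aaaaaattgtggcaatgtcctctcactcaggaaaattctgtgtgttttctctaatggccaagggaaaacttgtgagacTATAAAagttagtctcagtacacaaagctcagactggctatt
KRTAP5-1 (chr11:1606514-1606633, minus strand): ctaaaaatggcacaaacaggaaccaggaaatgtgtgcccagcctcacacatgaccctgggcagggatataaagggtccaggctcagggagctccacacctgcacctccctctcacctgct
IFNB1 (chr9:21077942-21078061, minus strand): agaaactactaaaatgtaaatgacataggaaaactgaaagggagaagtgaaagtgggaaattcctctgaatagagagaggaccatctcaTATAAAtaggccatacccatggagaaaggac
MAGEB17 (chrX:16185484-16185603, plus strand): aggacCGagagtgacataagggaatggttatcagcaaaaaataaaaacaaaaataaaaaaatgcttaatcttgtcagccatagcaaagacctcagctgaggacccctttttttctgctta
ALB (chr4:74269884-74270003, plus strand): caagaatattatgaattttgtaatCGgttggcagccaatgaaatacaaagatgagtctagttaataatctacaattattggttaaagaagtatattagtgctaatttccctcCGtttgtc
HBB (chr11:5248302-5248421, minus strand): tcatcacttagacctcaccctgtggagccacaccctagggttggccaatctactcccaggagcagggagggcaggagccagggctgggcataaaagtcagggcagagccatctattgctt
CSN1S1 (chr4:70796666-70796785, plus strand): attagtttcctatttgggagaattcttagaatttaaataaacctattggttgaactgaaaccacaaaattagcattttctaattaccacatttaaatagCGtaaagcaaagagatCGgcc
MYH1 (chr17:10421860-10421979, minus strand): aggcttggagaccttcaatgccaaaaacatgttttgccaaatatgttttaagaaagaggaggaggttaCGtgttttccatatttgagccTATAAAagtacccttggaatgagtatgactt
HOXD13 (chr2:176957329-176957448, plus strand): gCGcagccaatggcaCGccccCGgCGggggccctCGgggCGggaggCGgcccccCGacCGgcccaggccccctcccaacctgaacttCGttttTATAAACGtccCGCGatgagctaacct
VIM (chr10:17270120-17270239, plus strand): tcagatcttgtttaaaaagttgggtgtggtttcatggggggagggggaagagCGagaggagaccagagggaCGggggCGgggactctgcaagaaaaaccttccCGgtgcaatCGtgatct

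No CpG occurred in the 120 bases of OR4F5 (an olfactory receptor), KRTAP5-1 (a keratin-associated protein of hair), IFNB1 (interferon beta) or HBB (adult beta globin). ALB (serum albumin) and CSN1S1 (a milk casein) had 2 each, and MAGEB17 (a germline antigen) and MYH1 (a skeletal muscle myosin) had 1 each. HOXD13, a homeobox gene of limb patterning, had 13, against 5 at the marked VIM promoter. Over the 1 kb around the TSS the ratio of observed to expected CpG was 0.139 for OR4F5, 0.156 for HBB, 0.394 for ALB, 0.840 for HOXD13 and 0.794 for VIM. TATAAA stood at that place in OR4F5, IFNB1, MYH1 and HOXD13.

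Over the 5964 windows of chromosomes 1 to 22 and X, the CpG ratio in 1 kb had a median of 0.334 (quartiles 0.194 and 0.676), against 0.787 (0.693 to 0.869) in windows with H3K27ac. A ratio over 0.6 was found in 1859 unmarked windows, or 31.17% (30.01% to 32.36%), where 66.6% of all windows pass it, and in 19.03% when the ratio was taken over 3 kb. In comparison, 87.6% of H3K27ac windows, 79.5% of windows with H3K4me3 but no H3K27ac and 19.7% of windows with H3K4me1 alone did so. Unmarked windows therefore lay between the H3K4me1-only windows (median 0.275) and the H3K4me3 windows without H3K27ac (median 0.753), and their distribution had a low and a high part. The median GC content of the 3 kb was 48.9% in unmarked windows and 53.8% in H3K27ac windows.

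The share of unmarked windows fell from 75.6% of windows with a CpG ratio up to 0.2 to 11.5% of those above 0.8. TATAAA (6 bases on the strand of the gene, 45 to 15 bases before the TSS) was present in 461 unmarked windows, or 7.73% (7.08% to 8.44%). It was present in 1.88% (1.66% to 2.14%) of H3K27ac windows, in 7.34% (5.94% to 9.03%) of H3K4me1-only windows and in 3.96% of all windows. The intervals of the unmarked and the H3K4me1-only windows overlap.

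**Figure D1:**
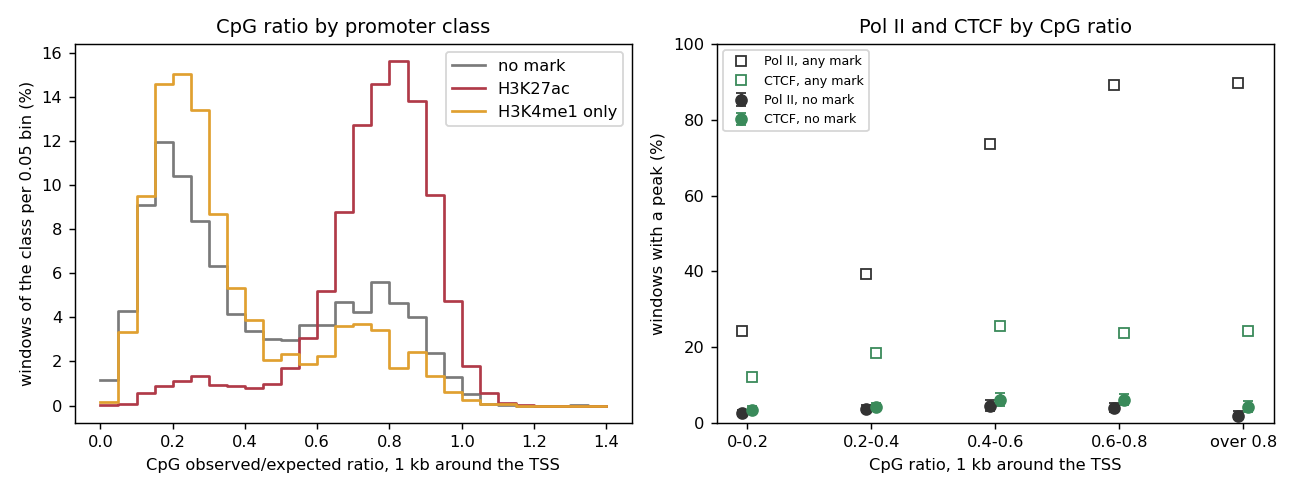
Left, distribution of the CpG observed/expected ratio in 1 kb around the TSS (x) as the percentage of windows of each class per bin (y), for windows with no mark, H3K4me1 only and H3K27ac. Right, percentage of windows with a Pol II or CTCF peak (y) in 5 ranges of the ratio (x), filled circles for unmarked windows with 95% Wilson intervals and open squares for marked windows; the filled circles stay between 1.81% and 5.99%.

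Pol II was found at few of these promoters. Of the 5964 unmarked windows, 194 held a Pol II peak, or 3.25% (2.83% to 3.73%), where 58.5% of all windows hold one. When histone regions narrower than their list's median width were dropped, it was 7.96%. As first defined, the share was 92.0% (91.5% to 92.5%) in H3K27ac windows, 11.1% (9.42% to 13.1%) in H3K4me1-only windows and 8.44% (6.37% to 11.1%) in windows with H3K4me3 but no H3K27ac. The unmarked share was lower by 7.89 points than that of the H3K4me1-only windows (95% Newcombe interval of the difference, unmarked minus H3K4me1-only, -9.92 to -6.10). It was also below that of the H3K4me3 windows without H3K27ac (difference -5.19 points, -7.89 to -3.06).

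CTCF was found at 268 unmarked windows, or 4.49% (3.997% to 5.05%), where 17.6% of all windows have a CTCF peak. The unmarked share was 2.14% in 1 kb and 7.14% in 5 kb windows, 7.24% with the narrower histone regions dropped in the same way and 2.33% with the narrower CTCF peaks dropped. In the 3 kb windows with all regions, H3K4me1-only windows reached 12.8%, windows with H3K4me3 but no H3K27ac 19.7% and H3K27ac windows 24.4%, and all 3 differences from the unmarked windows excluded 0 (-8.28, -15.2 and -19.9 points). p300/CBP peaks were in 14 unmarked windows, or 0.235% (0.140% to 0.394%), where 0.706% of all windows have one. It was 0.0757% in 1 kb windows, 0.113% with at least 80% of words occurring once (50-base words of the window, counted in the genome) and 0.0838% with the narrower p300/CBP peaks dropped. The 0.235% was below the 0.990% of H3K27ac windows (difference -0.756 points, -0.969 to -0.530). The difference from H3K4me1-only windows was -0.128 points with an interval of -0.701 to 0.145, so none was detectable with so few peaks. No factor peak at all was present at 5505 of the 5964 windows, 177 had Pol II alone, 251 had CTCF alone, 17 had Pol II and CTCF, and 14 had p300/CBP alone.

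**Figure D2:**
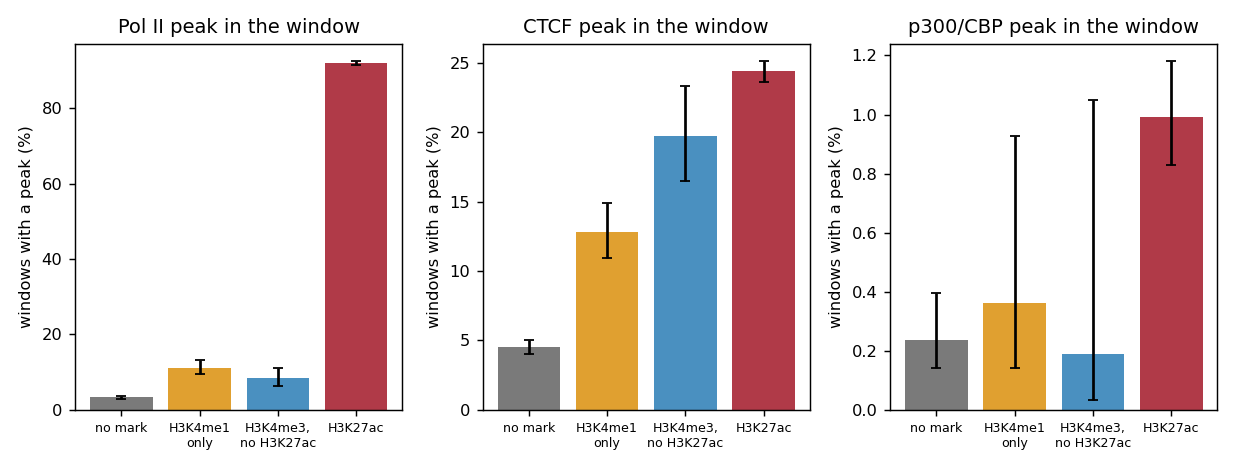
Percentage of promoter windows (y) with a Pol II, CTCF or p300/CBP peak in each promoter class (x) on chromosomes 1 to 22 and X; bars are shares, whiskers 95% Wilson intervals, and the 3 panels have their own scales. Unmarked windows are lowest for Pol II (3.25%) and CTCF (4.49%), while the p300/CBP interval of unmarked windows overlaps those of the H3K4me1-only and H3K4me3 classes.

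The low shares of Pol II and CTCF held in every range of CpG ratio. For p300/CBP, 0.900% (0.437% to 1.85%) of unmarked windows with a ratio of 0.4 to 0.6 had a peak. Of marked windows in that range 0.820% had one, and in every other range the unmarked share was below the marked one. Among unmarked windows with a ratio above 0.8, 1.81% (1.08% to 3.01%) had Pol II and 4.13% (2.94% to 5.78%) had CTCF, against 89.8% and 24.1% of marked windows of that range. Among those with a ratio up to 0.2, the unmarked windows had Pol II in 2.53% and CTCF in 3.35%, against 24.2% and 12.2% of marked windows.

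The 194 windows with Pol II shared 216 pairs of window and peak, and the peak covered the TSS in 103 of them. The peaks were wide, with a median of 1750 bp, against 1050 bp for those in marked windows. In 181 pairs the peak touched no histone region anywhere along its length, and in 35 it reached one outside the window. Another protein-coding gene whose own promoter was marked extended into the window of 90 of the 194 genes, or 46.4% (39.5% to 53.4%), against 533 of 5770 unmarked windows without Pol II, or 9.24% (8.52% to 10.0%). The nearest marked TSS was at a median of 16.0 kb with Pol II and 79.3 kb without. Another annotated TSS of the same gene was marked for 21 of the 194 (10.8%, 7.19% to 16.0%) and for 7.63% of the rest, intervals that overlap.

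The 15 genes whose Pol II peak touched no marked window and was centred nearest the TSS had their peak centre within 86 bp of it, and all 15 peaks covered the TSS. The nearest was TMEM216, a membrane protein of the ciliary transition zone, with a peak of 200 bp centred 8 bp upstream (chr11:61159951-61160151) and a CpG ratio of 0.742. PRSS53, a serine protease, had a peak of 250 bp. CHADL, a leucine-rich repeat protein of cartilage matrix, had one of 1000 bp, and HK3, the hexokinase of leukocytes, one of 3550 bp. TMOD4, the tropomodulin of skeletal muscle, had a peak of 150 bp in a window that VPS72, a gene with a marked promoter, also enters, and it also had a CTCF peak. The others were CCDC8, ENSG00000173366, TMEM89, CCDC62, MYLK2, TDRD12, LRRN4CL, ZDHHC11, MEI1 and VWA3A. MYLK2 encodes the myosin light chain kinase of skeletal muscle, and TDRD12 and MEI1 act in germ cells. A gene with a marked promoter entered the window of 5 of the 15.

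Pol II and CTCF met at 17 unmarked windows, among them FES (a tyrosine kinase), CDK3 (a cyclin-dependent kinase), KCND1 (a voltage-gated potassium channel), HBQ1 (the theta globin), ANKLE1 (a nuclease) and SLC23A3 (an orphan solute carrier). The remaining 11 were TMOD4, ENSG00000280537, C3orf20, ENSG00000173366, BTBD18, MORN3, NRN1L, RSKR, ENSG00000258472, TDRD12 and ENSG00000142539.

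CTCF peaks at unmarked promoters had a median width of 275 bp, close to the 300 bp of the whole list. The centre lay within 500 bp of the TSS in 110 of 284 pairs of window and peak. That zone is 1 kb of the 3 kb window, and no like count is given for marked windows. Only 2 of the peaks touched a histone region. For CTCF windows the nearest marked TSS was at a median of 64.5 kb, against 76.9 kb without CTCF. The motif CCNNNAGNNGGC, searched on both strands of the 300 bases around the peak centre, was present in 113 of 274 peaks, or 41.2% (35.6% to 47.2%). It was present in 35.5% of the peaks in marked windows and 38.5% of all CTCF peaks. Around the TSS it was present in 13.2% of the 300-base stretches of all windows. For unmarked windows alone that share was 9.17% (8.47% to 9.93%). The intervals of peaks in unmarked and in marked windows overlap (33.9% to 37.1% for the latter).

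The sequences below show that motif at 4 unmarked start sites that are among the 15 with the nearest CTCF peak. Each is 60 bases of GRCh37, 5′ to 3′ on the strand of the motif, with the 12 motif bases in capitals.
PRAME (chr22:22901682-22901741, plus strand): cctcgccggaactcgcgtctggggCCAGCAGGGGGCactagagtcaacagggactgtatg
CCDC175 (chr14:60043555-60043614, minus strand): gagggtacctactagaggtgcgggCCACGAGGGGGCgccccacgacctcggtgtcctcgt
COX8C (chr14:93813472-93813531, minus strand): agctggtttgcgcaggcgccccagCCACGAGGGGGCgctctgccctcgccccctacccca
CHRFAM7A (chr15:30685758-30685817, plus strand): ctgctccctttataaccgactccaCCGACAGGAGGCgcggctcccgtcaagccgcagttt

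Over all 284 pairs of window and peak, the CTCF peak covered the TSS in 49. The 15 peaks with the nearest centres all covered it, were 100 to 400 bp wide and had their centre within 46 bp of it. Their closeness follows from that choice. They belonged to PCDHGA10 and PCDHB13 (clustered protocadherins, the cell surface adhesion proteins of neurons), CGB2 (a chorionic gonadotropin subunit of placenta), PRAME and CT45A8 (cancer-testis antigens), C1QL4, BTBD18, CD80 (a costimulatory ligand of antigen-presenting cells), CCDC175, ENSG00000266302, COX8C, SGCZ (a sarcoglycan), CHRFAM7A, C1orf115 and CCDC144A. At least 80% of the sampled 50-base words of the window occurred once in the genome for 9 of the 15. The word share was 0% at CT45A8, 34.8% at CGB2 and 9.46% at CHRFAM7A, and the part of repeated sequence in these peaks was not tested.

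The 14 windows with p300/CBP fell into a tandem gene array and single genes. The array was 8 TAF11L genes on chromosome 5 (TAF11-like proteins), and 7 of them had at most 28.7% of words occurring once. RGPD2 (a RanBP2-like protein) had 37.2%. The other 5 were LYZL4 (a lysozyme-like protein of testis), POU1F1 (the pituitary transcription factor), AMTN (an enamel protein), OR2K2 (an olfactory receptor) and NGB (neuroglobin). In these 14 windows no peak covered the TSS, and the median width was 100 bp, against 150 bp over the list. None of them touched a histone region. In addition, 1 Pol II peak and 1 p300/CBP peak each spanned nearly the whole mitochondrial genome and so covered all 13 mitochondrial windows, for which the histone lists hold no region.

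Gene families differed strongly in how many of their promoters were unmarked. In 36 of the 43 families counted at least 50% of the windows were unmarked, in 16 at least 90% and in 12 all of them, where 30.4% of all windows are unmarked. The families were chosen with earlier results of these data known, so these counts describe the families listed and not gene families at large. The 43 families together held 2374 of all windows and 1243 of the 6039 unmarked windows.

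Among chemosensory receptors, 383 of 405 olfactory receptor windows were unmarked (94.6%, 91.9% to 96.4%), as were all 24 bitter taste receptors, all 6 trace amine receptors and all 4 vomeronasal receptors. Of the 22 marked olfactory receptors, 16 had H3K4me1 alone and 2 had H3K27ac, and none had Pol II. CTCF was present at 2 of the 383 unmarked olfactory receptor windows and Pol II at none.

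Skin and hair proteins were unmarked in large part. Of 55 keratins 40 were unmarked (72.7%, 59.8% to 82.7%), including KRT5, KRT1 and KRT10 of the epidermis, and 7 of the 15 marked ones had H3K27ac. Keratin-associated proteins of hair were unmarked at 68 of 94 windows, late cornified envelope proteins at 18 of 19 (LCE1F was marked) and small proline-rich proteins at 9 of 11. The window of KRT5 lay 173 bp from an H3K4me1 region.

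Genes of host defence were mostly unmarked. All 16 type I interferons and all 6 alpha-defensins were unmarked, and 32 of 40 beta-defensins. All of the interferons but IFNK lay in the 4.53 Mb stretch of chromosome 9 without any listed region, described below. Whether the DNA was present there was not tested. Under 80% of words occurred once in 3 of the 6 alpha-defensin and 19 of the 40 beta-defensin windows, and the part of read uniqueness was not tested. Of C-type lectins 24 of 31 were unmarked, of MS4A membrane proteins 15 of 16 and of the leukocyte and killer cell Ig-like receptors 12 of 15.

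Germline antigens of the X chromosome were unmarked at every window counted, namely 23 MAGE, 11 GAGE, 10 SPANX, 8 SSX and 16 CT45 and CT47 genes, as were the 12 PRAME family genes and the 26 USP17-like peptidases. These arrays are nearly identical repeats, and the median share of words that occurred once was 0% for CT45 and CT47, 2.36% for GAGE, 2.87% for USP17-like and 12.7% for PRAME family windows, but 94.9% for MAGE. The part of read uniqueness in these counts was not tested.

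Developmental and neuronal families were unmarked in large part and differed in CpG content. Of the 39 HOX genes, which pattern the body axis, 31 were unmarked, and 26 of the 31 had a CpG ratio over 0.6. In HOXA only HOXA13 was marked of 11 genes, and in HOXC only HOXC5 of 9. HOXB6 and HOXB9 were marked of 10 HOXB genes, and HOXD1, HOXD4, HOXD8 and HOXD12 of 9 HOXD genes. CTCF was present at 2 unmarked HOX windows, HOXB5 and HOXC10.

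Of the 51 clustered protocadherins 40 were unmarked, 28 of them with a CpG ratio over 0.6, which were all 11 unmarked ones of the alpha, 2 of 11 of the beta and 15 of 18 of the gamma cluster. CTCF was present at 9 of those 40 and at 9 of the 11 marked ones, and Pol II at 0 and 4, respectively. GABA-A receptor subunits were unmarked at 15 of 19 windows, with a CpG ratio over 0.6 in 7 of the 15. Glutamate receptor genes were unmarked at 14 of 19, 9 of the 14 above that ratio, and voltage-gated potassium channels at 24 of 40, 15 of the 24 above it. Of the sodium channel alpha subunits 5 of 9 were unmarked, none of the 5 was above that ratio, and 3 of them had CTCF.

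Metabolic and transport families were mixed. Cytochromes P450 were unmarked at 38 of 57 windows, UDP-glucuronosyltransferases at 20 of 22 and serpins, the serine protease inhibitors, at 23 of 35. Solute carriers were unmarked at 136 of 374 (36.4%, 31.6% to 41.4%), an interval just above the 30.4% of all windows. Replication-dependent histones were unmarked at 25 of 64 (39.1%, 28.1% to 51.3%), an interval that includes it. All 25 unmarked histone genes had a CpG ratio over 0.6.

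Below 30.4% were 5 families. Of the ZNF zinc finger genes 75 of 504 were unmarked (14.9%), and of the genes used in every cell 5 of 86 cytosolic ribosomal proteins, 1 of 40 proteasome subunits, 1 of 47 NADH dehydrogenase subunits and 0 of 78 mitochondrial ribosomal proteins. The unmarked ribosomal proteins included RPL10L (a retrogene of testis), RPL3L (the form of striated muscle) and RPS4Y1 and RPS4Y2 on chromosome Y, whose presence was not tested. PSMA8 is the proteasome subunit of testis, and NDUFA4L2, whose window held a Pol II peak, lay 864 bp from an H3K4me1 region.

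**Figure D3:**
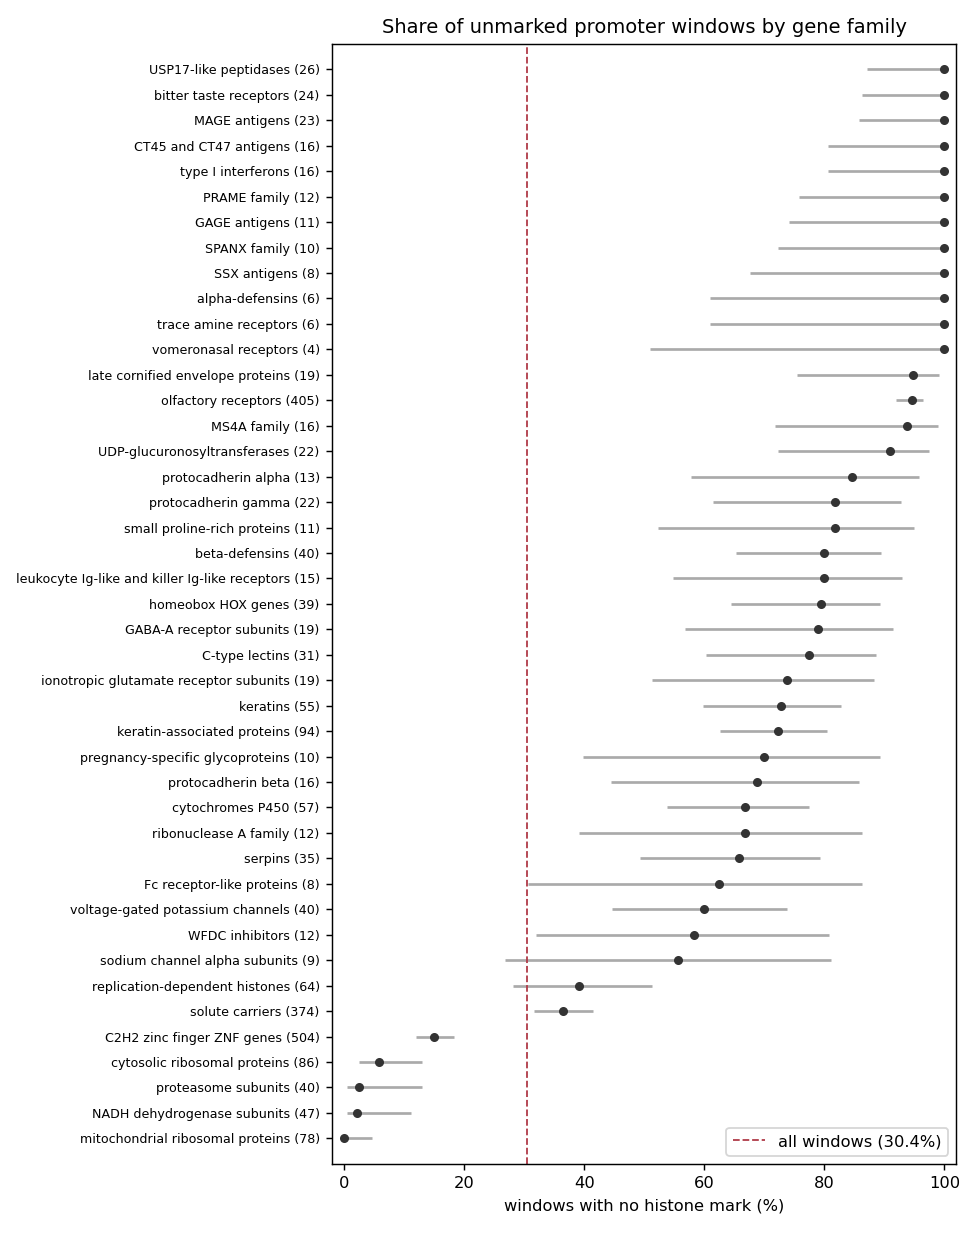
Percentage of promoter windows with no histone mark (x) for 43 gene families (y, number of windows in brackets), points with 95% Wilson intervals; the dashed line is the share over all windows, 30.4%. 12 families stand at 100% and 5 lie left of the line.

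Genes of single tissues were unmarked to different extents. Over 9 lists other than those of breast cancer cell types, 81 of 114 windows were unmarked, where 30.4% of all windows are, and of the 33 marked ones 21 had H3K4me1 alone and 12 H3K27ac. Casein and milk genes were unmarked at all 6 windows, globins at 9 of 10 (HBA2 was marked), pancreatic enzymes and hormones at 9 of 11 (CTRB1 and PPY were marked), and muscle sarcomere genes at 13 of 16 (TNNT2, MYL2 and TNNC2 were marked).

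Lymphocyte genes were unmarked at 11 of 14 windows (CD79A and CD79B were among the marked), neuronal genes at 9 of 13 (GAD1, SLC17A7, SNAP25 and SYP were marked) and germ cell genes at 11 of 16 (ZP1, ZP3, PIWIL1, TEX14 and DMC1 were marked). Liver secreted proteins were at 9 of 16, with AHSG, FGB, AMBP, HPX, F2, APOA1 and SERPINA1 marked, and photoreceptor genes at 4 of 12, with PDE6A, PDE6B, OPN1SW and ARR3 unmarked. The interval of the photoreceptor list (33.3%, 13.8% to 60.9%) includes the share of all windows. Pol II was found at 4 of the 81 unmarked windows, where 3.25% of all unmarked windows of chromosomes 1 to 22 and X have it. They were those of HBA1, HBQ1, ACTA1 (skeletal actin) and OPN1SW (the blue cone opsin). Only the peak at OPN1SW covered the TSS. The peak centre lay 1247 bp downstream of the TSS at HBA1, 1793 bp downstream at HBQ1 and 1160 bp upstream at ACTA1. In the HBA1 window 55.4% of words occurred once.

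Markers of the cell line itself were read from the same lists. All 8 markers of mesenchymal-like breast cancer cells (among them VIM, CD44, FOSL1, CAV1, MET, AXL and ZEB1) had H3K27ac and Pol II. Of the 8 luminal markers, ESR1 (the oestrogen receptor), GATA3 (a luminal transcription factor) and CDH1 (E-cadherin) were unmarked, and 3 of 8 (37.5%, 13.7% to 69.4%) is an interval that includes the 30.4% of all windows. KRT8 (a simple-epithelial keratin), ERBB3 (a receptor of the EGF receptor family) and FOXA1 (a forkhead factor) had H3K27ac and Pol II, PGR (the progesterone receptor) had H3K4me3 without H3K27ac, and ELF5 (an ETS factor) had H3K4me1 alone. In 1 kb the CpG ratios of the 3 unmarked windows were 0.765, 0.846 and 0.696, and the nearest histone region was 40766 bp away at ESR1, 5050 bp at GATA3 and 2306 bp at CDH1. None of these 3 windows had a Pol II, CTCF or p300/CBP peak.

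Across chromosomes, the share of unmarked windows was between 22.7% on chromosome 20 and 37.7% on chromosome 21 for the autosomes, and 52.3% (48.9% to 55.7%) on X. The interval of X lies above that of every autosome. Chromosome 19, rich in zinc finger genes, had 23.997% and chromosome 11, rich in olfactory receptors, 35.5%.

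Unmarked promoters lay next to each other along the chromosomes. The 5964 windows formed 3070 runs of neighbouring unmarked TSSs. Runs of at least 10 numbered 52 and held 834 windows (14.0%), and 14 runs of at least 20 held 347. Olfactory receptors were the most frequent genes in 17 of the 52 runs. The number of neighbours in a run depends on gene density as well as on marks.

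The longest run, on chromosome 11, had 35 windows from OR4A47 to OR8H3 (29 olfactory receptors) over 7.38 Mb. It held a step of 3.51 Mb between the neighbouring TSSs of OR4C46 and TRIM48, with 10 windows before it and 25 after it. Between its first and last TSS lay 8 H3K4me1, 36 H3K4me3, 7 H3K27ac, 9 Pol II, 30 CTCF and 277 p300/CBP regions. The run with the next most p300/CBP regions, TAF11L6 to CDH6, held 47. The part of repeated sequence in these p300/CBP regions was not tested. When a step over 1 Mb ended a run, runs of at least 10 held 772 windows. The next run on that chromosome had 31 windows from OR51S1 to UBQLNL (23 olfactory receptors, with the beta globin genes among them). GPR78 to SLC2A9 on chromosome 4 held 27 windows, of which 20 belonged to USP17-like genes. Of 26 windows each were GRIK1 to KRTAP20-1 on chromosome 21 with 23 keratin-associated proteins, OR2L5 to ENSG00000286015 on chromosome 1 with 25 olfactory receptors, and UGT2B11 to JCHAIN on chromosome 4 with glucuronosyltransferases and the casein genes. DEFB103B to DEFB103A had 24 windows with 10 beta-defensins. The median share of words that occurred once was 3.04% in the run from GPR78 and 5.91% in that from DEFB103B. The part of read uniqueness in these 2 runs was not tested. GTSF1 to OR10P1 on chromosome 12 and HACD4 to IZUMO3 on chromosome 9 had 23 each, led by olfactory receptors and by type I interferons. OR11H12 to OR11H4 on chromosome 14, of 22 windows, held 20 olfactory receptors.

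Runs were seldom free of every mark between their promoters. Of the 52 runs, 10 had no histone region between the first and the last TSS, and 46 had at least 1 CTCF peak. The olfactory receptor run from OR2L5 held 0 histone regions, 0 Pol II peaks and 6 CTCF peaks in 0.685 Mb. The keratin run from KRT86 to KRT3 (20 windows, 0.521 Mb) held 11 H3K4me1, 2 H3K4me3 and 5 H3K27ac regions, 1 Pol II, 11 CTCF and 2 p300/CBP peaks.

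Of these runs, 1 held no region of any of the 6 antibodies, namely the one from HACD4 to IZUMO3. It carries 15 type I interferon genes, KLHL9 (a ubiquitin ligase adaptor), MTAP (an enzyme of methionine salvage), the cyclin-dependent kinase inhibitors CDKN2A and CDKN2B, DMRTA1 and ELAVL2. The stretch without any listed region was 4.53 Mb (chr9:20816151-25350151) and was the longest such stretch of determined sequence on chromosomes 1 to 22 and X, where the next was 1.88 Mb. KLHL9, MTAP and CDKN2A had CpG ratios of 0.776, 0.780 and 0.782, and 96.3% or more of their words occurred once. Whether the DNA itself was present was not tested, since no list was made from the input libraries.

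**Figure D4:**
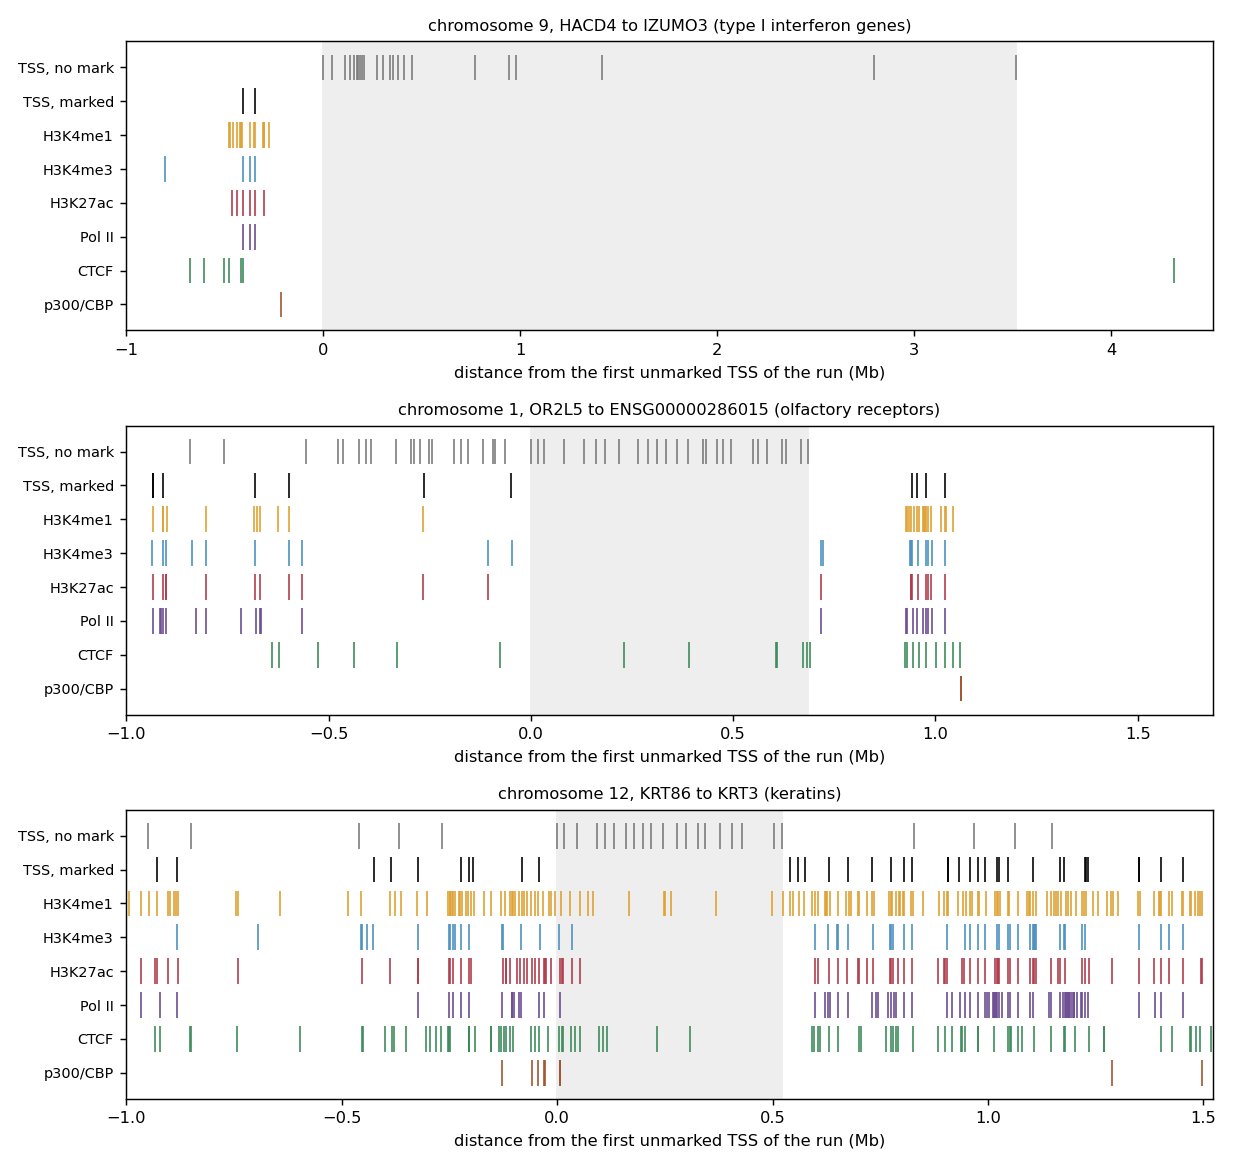
Unmarked and marked TSSs and the listed regions of each antibody (y, 1 line per region at its centre) by distance from the first unmarked TSS (x, Mb) in 3 runs, shaded, with 1 Mb on either side. The interferon run holds no region of any kind, the olfactory run holds only CTCF peaks (6), and the keratin run holds regions of all 6 antibodies.

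A second stretch without histone marks was the end of chromosome X. All 15 genes there that the annotation also places on Y, from PLCXD1 to CD99, were unmarked, as were VAMP7, IL9R and WASH6P at the other end. Between PLCXD1 and CD99 the lists held 0 histone regions, 0 Pol II peaks, 7 CTCF peaks and 1 p300/CBP peak. SLC25A6, the mitochondrial ADP/ATP carrier found in most tissues, had a CpG ratio of 0.957 and was 1254195 bp from the nearest histone region. The copies on Y are undetermined bases in the reference used here, so the count of words that occur once says nothing about these genes, and the part of reads that map to both copies was not tested.

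Sequence that occurs more than once went with unmarked windows in general. Of windows in which under 20% of words occurred once, 358 of 387 (92.5%) were unmarked, against 5290 of 18894 (28.0%) of those at 80% or more. Windows under 80% made up 11.3% (10.5% to 12.1%) of the unmarked and 1.81% (1.60% to 2.05%) of the marked windows. With only windows at 80% or more kept, 94.1% of olfactory receptors, 71.2% of keratins, 79.5% of HOX genes and 14.3% of ZNF genes were unmarked. This left out 30 of 405 olfactory receptor, 3 of 55 keratin, 0 of 39 HOX and 23 of 504 ZNF windows. The HOX share therefore could not change, and the other 3 could move only little. The part of read uniqueness in these and the remaining counts was not tested.

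Distances to the nearest region describe how far these promoters lay from marked chromatin. The median distance from the edge of the window was 16.5 kb to H3K4me1 (quartiles 4.77 and 52.2 kb), 42.5 kb to H3K27ac (13.8 and 113 kb) and 49.0 kb to H3K4me3 (17.1 and 118 kb). To any mark it was 13.8 kb, and 659 windows (11.05%) were over 100 kb from one.

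Just inside the rule, 29 windows had a region within 50 bp, the nearest being SLC23A3 at 0 bp, CHCT1 at 1 bp, NPTX2 (a neuronal pentraxin) at 4 bp, OVOL3 at 6 bp and CDX1 (an intestinal homeobox factor) at 10 bp. Just outside it, 27 marked windows shared at most 50 bp with any mark, the smallest being KLHDC8A at 1 bp, OR1F1 at 3 bp, PPP1R14D at 5 bp, MYPN at 6 bp and FAM83F at 7 bp. The farthest were PLCXD1 at 2567 kb, GTPBP6 at 2534 kb, PPP2R3B at 2418 kb and SHOX at 2174 kb on X and PTPRD, a receptor phosphatase on chromosome 9, at 2094 kb.

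**Figure D5:**
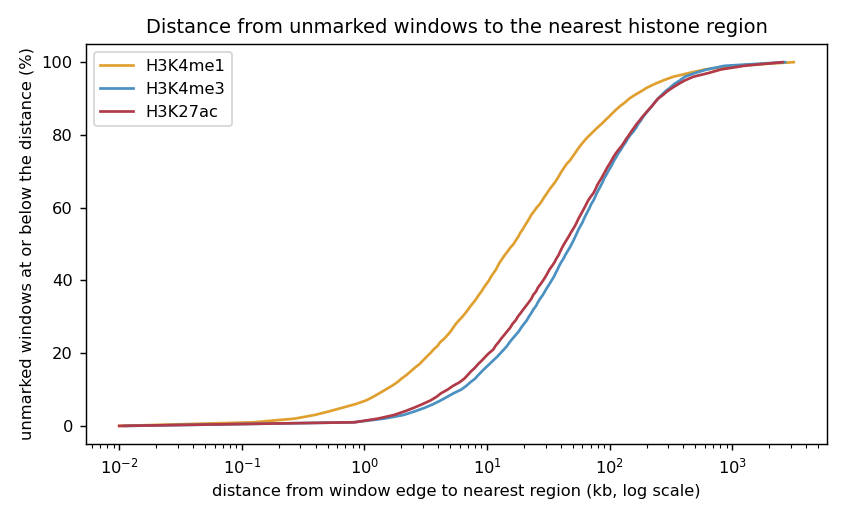
Percentage of the 5964 unmarked windows (y) that lie within a given distance of the nearest H3K4me1, H3K4me3 or H3K27ac region (x, kb, log scale, distances under 0.01 kb drawn at 0.01). The H3K4me1 curve lies left of the other 2, with medians of 16.5, 49.0 and 42.5 kb for H3K4me1, H3K4me3 and H3K27ac.

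A gene with an unmarked canonical promoter was not always free of marks. Of the 6039 genes, 461 (7.63%) had another annotated TSS with a mark, and 2523 (41.8%) had a histone region somewhere in the gene body, most often H3K4me1 (2406), followed by H3K27ac (1338) and H3K4me3 (1116). No like histone counts for genes with a marked promoter are given here, so these shares cannot be called high or low. CTCF lay in 2166 gene bodies (35.9%, 34.7% to 37.1%), Pol II in 927 (15.4%, 14.5% to 16.3%) and p300/CBP in 435 (7.20%, 6.58% to 7.88%). Of the 13855 genes with a marked promoter, 7895 had CTCF (56.2% to 57.8%), 11721 Pol II (84.0% to 85.2%) and 1727 p300/CBP (11.9% to 13.0%) in the gene body, which includes the part of the promoter window after the TSS. Over all genes the shares were 50.6% for CTCF, 63.6% for Pol II and 10.9% for p300/CBP. For 3504 genes (58.0%) neither the gene body nor any annotated TSS had a histone region. Gene lengths were not matched in these counts, and their median was 17.3 kb for unmarked and 31.7 kb for marked genes.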

How the data were processed

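Merged ChIP-seq peak lists of 6 antibodies in MDA-MB-231 cells were analysed, with 2 libraries per antibody and 1 for p300/CBP. Per the study's methods the authors aligned reads to hg19 with BWA-backtrack (the submitters' processing notes name Bowtie2), made merged signal tracks with PASHA and called peaks by thresholding. The names of the deposited lists add unique reads and 50 bp bins for all 6, scaling for all but CTCF, and background subtraction for the histone and p300/CBP lists. The deposited files hold positions in bp and no other value, so depth is unknown. Input libraries were not used here.

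Ends were read as the first base after the peak. TSSs were from GENCODE release 44 on GRCh37, and 282 of 20176 protein-coding genes without a canonical transcript there were left out. CpG ratio is observed over expected CpG. Uniqueness is the share of 50-base words, taken every 10 bases, that occur once in the genome. Shares have Wilson and differences Newcombe 95% intervals. In 3600 simulated comparisons the interval functions gave 0 wrong answers. No p-values were computed, since the lists hold no replicates. Python 3.11.15, NumPy 2.4.6, pandas and SciPy 1.17.1 were used. No column was left unmapped. The rule and gene lists were chosen with earlier results of these data known, and the patterns for SSX and ZNF symbols were corrected after a first look. Genes named are the 15 nearest to their Pol II or CTCF peak, all with p300/CBP, run ends, the smaller side of each tissue list, the nearest and farthest windows and those with several factors, and KRT, HOX, ribosomal and interferon-run genes were named after their values were seen. Single members of some lists are not reported here by name.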

Additional observations from a re-analysis of the deposited data

How the results depend on the processing

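12 results were recomputed under the alternatives, which gave 101 values, of which 74 lay inside the reported interval of a share or differed from a reported count by less than 1.5 times. The counts of windows, of families and of windows in long runs moved by less than 1.5 times. The share of unmarked windows was 33.6% in windows of 1 kb and 28.0% in windows of 5 kb, 32.8% with at least 500 bp of a mark needed, 37.4% with wide histone regions only, 28.0% when no basic transcript's TSS was marked, and 28.1% with at least 80% of words occurring once. The share with Pol II was 3.82% with 500 bp needed, 7.96% with wide histone regions only, 2.26% by peak centre, 2.63% with 50% of the peak or window shared and 2.50% with wide Pol II peaks only. The share with CTCF was 2.14% in 1 kb and 7.14% in 5 kb windows, 5.31% with 500 bp needed, 7.24% with wide histone regions only and 2.33% with wide CTCF peaks only. The share with p300/CBP was 0.0757% in 1 kb windows, 0.113% with at least 80% of words occurring once and 0.0838% with wide peaks only. A CpG ratio over 0.6 was found in 19.03% when the ratio was taken over 3 kb. Without Y, mitochondrial and pseudoautosomal genes and windows with under 80% of words occurring once, an alternative chosen after seeing the data, 27.9% of windows were unmarked and 0.114% of them had p300/CBP. Narrower or wider windows change how much sequence is searched; the cause of the other moves was not tested.

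Peak lists without heights or depth set the limits here: a weak mark below the authors' threshold and no mark cannot be told apart, and other histone marks were not measured. No paired analysis was possible because each list pools its libraries, and leaving out a library in turn was not run for this reason.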

Other observations

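Further families appeared when all symbols were grouped by their letters, a grouping looked at after the values were known and given as counts only, beside the 30.4% of all windows. T-box developmental factors (TBX) were unmarked at 11 of 13 windows, serotonin receptors (HTR) at 14 of 17, POU-domain transcription factors and their cofactors at 14 of 19, and voltage-gated calcium channel subunits (CACNA) at 10 of 14. Among secreted and cell surface proteins, CCL chemokines were unmarked at 19 of 26 windows, kallikreins (KLK) at 11 of 15, SPINK protease inhibitors at 8 of 10, TMPRSS transmembrane serine proteases at 13 of 15, SIGLEC receptors of leukocytes at 9 of 12 and SULT sulfotransferases at 10 of 13. These were chosen for their many unmarked windows. Other developmental families lay below the 30.4%, with semaphorins (SEMA) at 1 of 20, Frizzled receptors (FZD) at 2 of 10 and KLF factors at 4 of 18. WNT ligands, at 7 of 19 (36.8%), lay above it.

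Among CpG-rich unmarked windows, synaptotagmins (SYT), the calcium sensors of vesicle release, had 9 of 12 unmarked windows with a CpG ratio over 0.6, cadherins (CDH) 8 of 15, SOX transcription factors 8 of 10 and collagens (COL) 10 of 24, beside 31.17% of all unmarked windows of chromosomes 1 to 22 and X. These families too were chosen after their counts were seen. EPCAM, the epithelial adhesion molecule, named after its value was seen, was unmarked with a CpG ratio of 0.901 in 1 kb, and its nearest histone region, of H3K4me1, was 6099 bp away. No Pol II, CTCF or p300/CBP peak lay in the window of EPCAM.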
